A study of Drosophila melanogaster with 3 samples.

Results

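The regions described here are the weaker ones that stood directly below the final, replicate-filtered list of binding sites of the zinc finger protein zf30C in Drosophila melanogaster embryos. They were chosen by pooled signal, as the regions ranked directly below that final list in the list made from all 3 replicates, over as many ranks as the final list holds, without those that overlapped a region of the final list by 1 bp or more. That left 3329 regions of 30000 in the pooled list, after 238 had been set aside for overlap. They are called the band below, the same number of ranks after it the next ranks, and as many ranks at the head of a list its top ranks. The data came from chromatin immunoprecipitation with sequencing (ChIP-seq) on whole embryos, males and females together, aged 0 to 24 h, of a transgenic line that stably carries zf30C with GFP fused to its C-terminus. There were 3 libraries, labelled biological replicates 1 to 3 of a single group, from chromatin sonicated to 200 to 800 bp. A whole embryo of mixed age holds many cell types. A weak region can thus be one with little occupancy in many cells or much occupancy in few. The authors label the pooled list as peaks and background, so a band region can also be background without occupancy. These cannot be told apart here. In the labels the antibody target is zf30C, whereas their free text calls the same libraries an input control, and no separate control library was analysed here. The libraries were read as immunoprecipitated samples.

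zf30C belongs to the C2H2 zinc finger family, whose members contact DNA through arrays of zinc-stabilised fingers and include many transcription factors and architectural proteins. A region list from ChIP-seq ranks places by how much immunoprecipitated DNA piles up there, and the irreproducible discovery rate (IDR) procedure keeps the places that rank alike in replicates. Strong regions tend to hold the factor's own recognition sequence, while weaker ones may also lie at open chromatin such as active promoters. Among the proteins known to act at fly promoters, M1BP binds the core promoter element called Motif 1 and DREF binds the DNA replication-related element, both common at housekeeping genes, and the TATA box is common at regulated genes.

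The sequences shown first are sites of TACACTG, a heptamer concentrated at the summits, because it was less common at band promoters than in band introns and between genes. Each is read 5′ to 3′ on the strand that carries it (dm6, RefSeq Release 6 sequence), with the heptamer and the A that follows it in capitals. They are matches of TACACTGA in band members among those with the highest mean percentile of signal over the 3 replicate lists, and they were chosen after their values were seen. Some with a higher mean percentile are not shown, and the mix of classes here does not follow the shares in the band. The introns of ed and tai are those of a cell adhesion protein and a nuclear receptor coactivator.
intron of ed, chr2L:4071817-4071844, minus strand: acgatgagcgTACACTGAaacaaatagg
intron of tai, chr2L:9224861-9224888, minus strand: tttgttgggaTACACTGAgagaaactcg
promoter of Nhe2, chr2L:21108238-21108265, plus strand: aagttcaatcTACACTGAaaaccaatct
promoter of CG5966, chrX:5988289-5988316, plus strand: actttgcatcTACACTGAgcgaaacgct
promoter of CG2961, chrX:10233131-10233158, plus strand: gttcgccgctTACACTGAaaacaaactt

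The windows reaching 50 bases to either side of the summit are shown for band members with a high mean percentile, 1 each with a promoter, an intronic and an intergenic summit. They were chosen after their values were seen, and the promoter one is not the highest of its class. Capitals mark TACACTG, which is present only in the intergenic one of these windows. The intron of Lim1, a LIM-homeobox gene, and the promoter of the uncharacterised gene CG15771 held no match of it, nor of the GAGA factor, M1BP or DREF motifs.
promoter of CG15771, chrX:5755511-5755611, plus strand: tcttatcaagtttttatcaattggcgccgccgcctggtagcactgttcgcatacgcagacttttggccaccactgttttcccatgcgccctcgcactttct
intron of Lim1, chrX:8775522-8775622, plus strand: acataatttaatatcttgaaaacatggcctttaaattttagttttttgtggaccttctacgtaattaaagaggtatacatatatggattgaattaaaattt
intergenic, nearest start alphaTub84B, chr3R:7089671-7089771, plus strand: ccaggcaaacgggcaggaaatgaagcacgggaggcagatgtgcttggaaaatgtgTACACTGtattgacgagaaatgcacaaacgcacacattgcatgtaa

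Other band promoters held the M1BP motif (GGTCACAC, here read as its reverse complement) or the DREF motif (TATCGATA), which stand in capitals in the next windows. These too were chosen after their values were seen, by a high mean percentile among those with such a match and no TACACTG. ATPsynC encodes a subunit of mitochondrial ATP synthase, lute a BTB-domain protein, rno a PHD-finger protein and ewg a transcription factor of neurons and flight muscle.
promoter of ATPsynC, chr3R:31219751-31219851, plus strand: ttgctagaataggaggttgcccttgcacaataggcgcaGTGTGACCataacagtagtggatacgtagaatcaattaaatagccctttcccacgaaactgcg
promoter of lute, chr3R:17385782-17385882, plus strand: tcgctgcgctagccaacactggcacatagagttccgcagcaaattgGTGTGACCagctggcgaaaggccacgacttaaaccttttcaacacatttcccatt
promoter of rno, chr3L:199778-199878, plus strand: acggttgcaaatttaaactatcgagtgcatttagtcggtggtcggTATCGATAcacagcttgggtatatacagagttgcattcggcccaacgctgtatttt
promoter of ewg, chrX:279534-279634, plus strand: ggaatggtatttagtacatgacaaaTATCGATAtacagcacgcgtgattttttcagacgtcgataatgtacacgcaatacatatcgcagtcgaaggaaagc

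Pooled signal, the value that chose the band, ran from 119 to 193 with a median of 146, against a median of 102 in the next ranks (3377 regions without overlap with the IDR list) and 332 in the IDR list. No source used here names the unit of the signal, and the lists hold no read counts, so the depth is unknown and heights are given without an interval. The band began at the promoter of CG8152 with a signal of 193.006, and the last IDR-list peak, at the promoter of the non-coding RNA gene lncRNA:CR43992, had 193.006 as well. The band ended at the promoter of Hnf4, a nuclear receptor of fat metabolism, with 119.358, and the next region outside it, at CG8814, had 119.343. The authors' −log10 q-value stood at its ceiling of 3.96 in 915 band regions, or 27.5%, in none of the next ranks and in every IDR-list peak. Regions of the band had a median width of 440 bp. Of the 3329, 144 overlapped another band region, so that neighbours can share 1 replicate region and its rank. The band spread over the arms much as the IDR list did, with 21.7% on 3L in the band, against 25.4% in the next ranks and 23.1% in the IDR list.

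The band lay mostly at promoters and in introns. A promoter summit is one within 500 bp of an annotated transcription start, and 1374 of the 3329 band summits were of this class, or 41.3% (exact 95% interval 39.6 to 43.0%, counting error only). The share was 34.5% in the next ranks and 39.5% in the IDR list, and 23.2% over all 22245 regions ranked below the band that overlap no IDR-list region. Introns held 36.2% of the band, 38.6% of the next ranks and 36.5% of the IDR list. Intergenic summits made up 18.5% of the band, 20.3% of the next ranks and 714 IDR-list peaks. Coding exons, which made up 7.54% of all lower regions, held only 17 band summits, or 0.511%, against 2.10% of the next ranks and 0.280% of the IDR list. The 3 highest band summits in coding exons lay in l(3)mbn, CG6356 and CG4230, with pooled signals of 192, 186 and 178, and are named after their values were seen.

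The same rank band was then read from each replicate's own list, where the replicate is the unit of error. Promoter summits made up 40.3, 37.2 and 38.0% of the band in replicates 1, 2 and 3, against 35.2, 30.0 and 30.9% of the next ranks. The band was the higher in 3 of 3 replicates, by 6.46 ± 1.18 percentage points (SD, n = 3). In a two-sided exact sign-flip permutation test over the replicates this gave p = 0.25, the smallest value that 3 replicates allow, so no comparison of this kind can pass a threshold of 0.05. The top ranks held 37.3, 39.8 and 44.8% promoter summits, and here the difference, band minus top, changed sign between replicates (-2.11 ± 4.97 points, higher in 1 of 3, exact p = 0.75). Coding exons held 0.533, 2.19 and 1.74% of the band in replicates 1, 2 and 3. They held 1.26, 5.52 and 5.49% of the next ranks and 0.392, 0.421 and 0.336% of the top ranks, so the band stood between both in every replicate (exact p = 0.25 for each). Intron shares were even, at 36.7 ± 0.340% in the band, 38.2 ± 0.913% in the next ranks and 35.8 ± 2.35% in the top ranks. The replicate lists and the pooled list come from the same libraries, so the pooled shares are not a second piece of evidence.

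**Figure D1:**
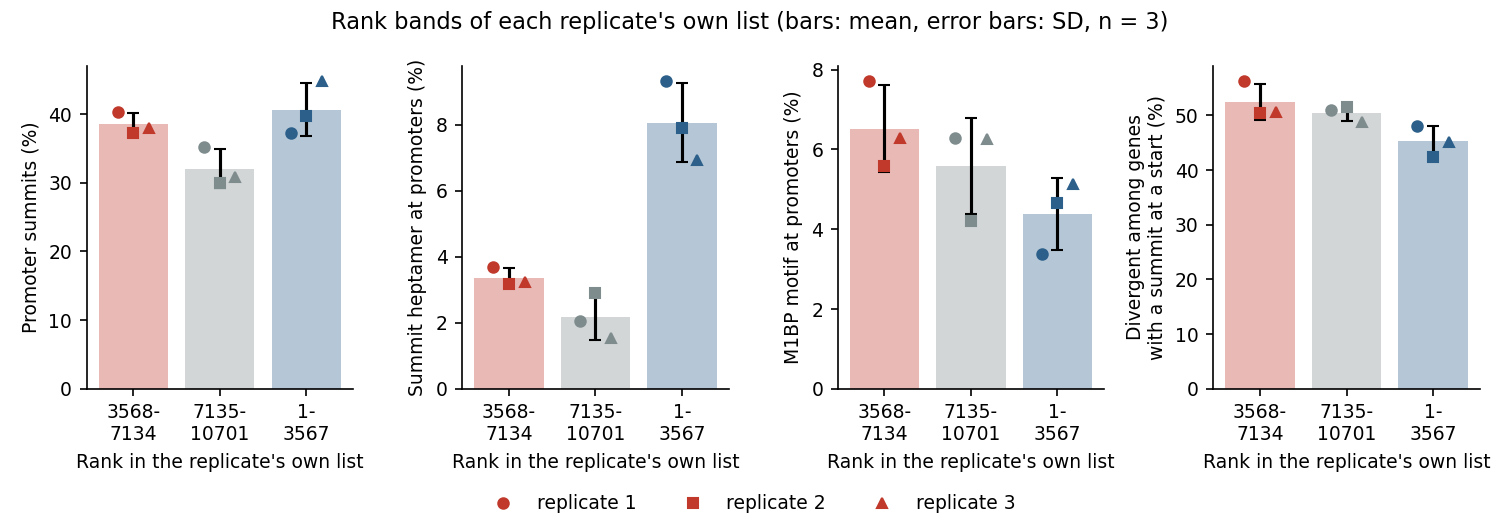
Share of promoter summits, of promoter windows with TACACTG, of promoter windows with the M1BP motif, and of divergent genes (vertical axes, %), in the band, the next ranks and the top ranks of each replicate's own list, from left to right. Bars are means and error bars SD over 3 replicates, shown as points. Regions that overlap the IDR list were kept in these replicate bands. At promoters the heptamer share averaged 3.37% in the band, 2.17% in the next ranks and 8.05% in the top ranks.

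How far the summit sequence differed between band promoters and the rest of the band depended on the word searched. When all hexamers present at 4% or more of IDR-list summits were ranked by their share within 50 bp of the summit over that in windows centred 250 bp to either side, ACACTG came first of 754. It was also first in the band, in 15.7% of summit windows and 4.81% of flanking ones, a ratio of 3.26. In the next ranks 11.7% of windows held it, with a ratio of 2.62, and in the IDR list 19.8%, with a ratio of 3.99. The next 3 hexamers in the IDR-list order share 5 bases with it. TACACT and CACTGA overlap it, whereas GCACTG differs from it in the first base. TACACT was at 13.2% of band summits. The hexamer CACTGA was at 12.2% and the hexamer GCACTG at 12.7%. ACACTG also overlaps the M1BP motif, whose last 4 bases ACAC can be the start of ACACTG. In band promoters 36 of 216 matches of ACACTG lay in such an M1BP match, against 20 of 148 in next-rank promoters and 21 of 289 in IDR-list promoters. In band introns it was 1 of 192. TACACTG cannot overlap M1BP in that way, and it was therefore used from here on, a choice made after the values were seen.

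TACACTG lay within 50 bp of 248 band summits, or 7.45% (6.58 to 8.39%), against 0.931% of windows to either side. In the next ranks it was 169 of 3377 windows, with 1.13% at their sides, and in the IDR list 11.1%, with 1.71%. In the band the heptamer was least common at promoters, where 3.42% of windows held it (2.52 to 4.52%), and stood at 9.29% in introns (7.71 to 11.1%) and 10.7% between genes (8.38 to 13.4%). Next-rank windows held it in 2.74% at promoters, 6.29% in introns and 6.28% between genes. In the IDR list the shares were 8.59, 12.5 and 11.3% in the same order, so that promoters were where the band and the IDR list stood furthest apart. The heptamer lay within 50 bp of 0.899% of all 23581 annotated starts. It was centred on the summits, with a peak of 21.0 matches per 1000 band summits in the 20 bases just upstream in genome order, and with 53.2% of the 252 matches within 20 bp of the summit. A longer context recurred beside it. The base 3 places after the heptamer was A in 62.3% of the 252 band matches, and those 5, 6 and 7 places after it were A in 71.0, 75.8 and 70.6%, against 41.3, 46.0, 41.3 and 50.8% at 63 matches in flanking windows. The next base but 1 was A or G in 38.5 and 40.1% of band matches.

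**Figure D2:**
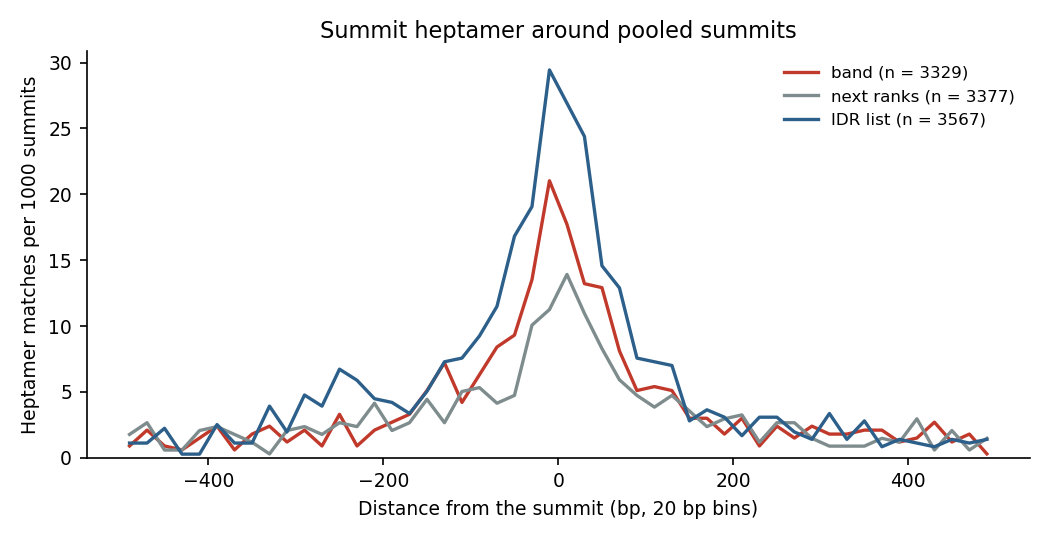
Matches of TACACTG on either strand per 1000 summits (vertical axis) in 20 bp bins of distance from the summit (horizontal axis, bp), for the band, the next ranks and the IDR list. The band reached 21.0 matches per 1000 summits next to the summit, above the next ranks and below the IDR list.

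Within the replicates' own lists the heptamer at promoters was ordered in the same way. Of promoter windows in the band, 3.68, 3.16 and 3.25% held it in replicates 1, 2 and 3, against 9.32, 7.90 and 6.94% in the top ranks. The band was lower in 3 of 3 replicates, by -4.69 ± 0.975 points (band minus top, SD, n = 3, exact p = 0.25). The next ranks held 2.07, 2.89 and 1.54%, with the band higher in 3 of 3 (1.20 ± 0.805 points, exact p = 0.25). Over all classes the band held 6.07 ± 1.06%, against 3.85 ± 0.941% in the next ranks and 10.3 ± 1.06% in the top ranks.

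Band promoters held more matches of the M1BP and DREF motifs than IDR-list promoters did, as counted within 100 bp of the summit on both strands. GGTCACAC was in 110 of 1374 band promoter windows, or 8.01% (6.63 to 9.57%), against 7.63% of next-rank promoters and 4.05% of IDR-list promoters (3.08 to 5.21%). Around all annotated starts the share was 4.76%. TATCGATA was in 6.62% of band promoters (5.37 to 8.07%), 6.69% of next-rank promoters and 4.26% of IDR-list promoters (3.27 to 5.45%), with 5.45% around all starts. CAGCTG, an E-box bound by basic helix-loop-helix proteins, was in 16.7% of band promoters, 15.4% of next-rank promoters, 11.0% of IDR-list promoters and 12.3% of windows at all starts. TATAAA went the other way between the lists, with 22.3% in band promoters, 20.6% in next-rank promoters, 27.0% in IDR-list promoters and 26.2% at all starts. GAGAG, the GAGA factor motif, was in 33.3% of band promoters, 30.2% of next-rank promoters and 36.1% of IDR-list promoters, against 24.3% at all starts. The other motifs searched were within 1.5 points of their share at all starts in band promoters. The AP-1 motif, spelled TGANTCA, was in 2.98% of them. The motif of GATA factors, searched as AGATAAG, was in 1.89%. For the Polycomb recruiter Pho, with the motif GCCATNTT, the share was 4.66%, and for the early embryonic activator Zelda, with CAGGTAG, it was 1.31%.

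**Figure D3:**
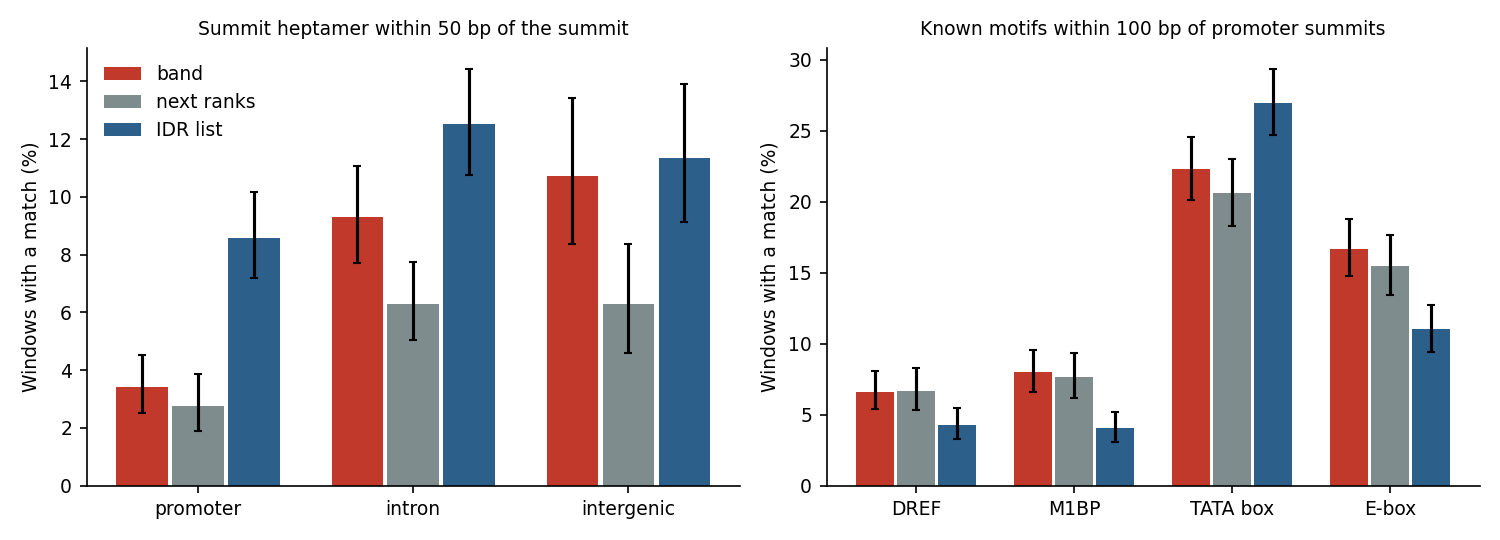
Share of windows with a match (vertical axes, %) in the band, the next ranks and the IDR list, for TACACTG by summit class (left) and for 4 known motifs at promoter summits (right). Error bars are exact 95% intervals and cover counting error only. The heptamer was in 3.42% of band promoters and 8.59% of IDR-list promoters, and the M1BP motif in 8.01 and 4.05%.

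By replicate, the M1BP motif was in 7.71, 5.57 and 6.28% of promoter windows of the band, against 3.38, 4.65 and 5.13% of those of the top ranks, higher in 3 of 3 (2.13 ± 1.91 points, exact p = 0.25). Replicate 1 had the widest of these differences. The DREF motif was at 5.96 ± 0.577% in the band, 5.73 ± 0.564% in the next ranks and 4.13 ± 0.930% in the top ranks, higher than the top in 3 of 3 (1.83 ± 0.492 points, exact p = 0.25) and higher than the next ranks in 1 of 3 (exact p = 1). TATAAA at promoters was at 22.1 ± 3.34% in the band and 26.1 ± 4.06% in the top ranks, lower in 3 of 3 (-4.01 ± 1.48 points, exact p = 0.25). Base composition moved with these motifs. Median GC content within 100 bp of the summit was 41.3 ± 1.79% in the band, 42.3 ± 1.32% in the next ranks and 38.5 ± 2.01% in the top ranks, and at promoters 42.3 ± 1.99% in the band and 40.6 ± 3.04% in the top ranks. The part of base composition in the motif shares was not tested.

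Promoter summits of the band lay close to the start. Their median position was 34 bp upstream, written -34, with quartiles at -102 and 31, and 63.9% were upstream. In the next ranks the median was -29.5, and in the IDR list -53 with quartiles at -181 and 29. In the replicates' own lists the band median was -39, -23 and -20.5 bp and the top median -80.5, -53 and -39 bp in replicates 1, 2 and 3, closer to the start in the band in 3 of 3 (exact p = 0.25).

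At these promoters, 1538 of 13945 protein-coding genes had a band summit within 500 bp of a start, 11.0% of them, and among genes of every kind it was 1721 of 18164, or 9.47%. Both shares are the background against which the gene lists below are read. An IDR-list peak stood at 1346 protein-coding genes and a next-rank region at 1273. Of the 1538 genes of the band, 119, or 7.74%, also had an IDR-list peak at a start, against 9.65% of all protein-coding genes. The remaining 1419, or 92.3%, had none. Regions that overlap the IDR list were left out of the band, which lowers the number of genes with both by construction. A band promoter summit served 1 gene in 949 cases, 2 genes in 396 and 3 or more in 29, so the genes are not independent of one another. Where a summit lay near 2 genes on opposite strands, the data do not tell which gene it concerns. Of the 1538 genes, 825, or 53.6% (51.1 to 56.2%), were divergent at the start concerned, meaning that another gene of any kind started on the opposite strand within 1000 bp upstream. The share was 50.4% of next-rank genes and 44.4% of IDR-list genes (41.8 to 47.1%), and 50.5% of the 6151 genes with any pooled summit at a start. In the replicates' own lists 56.3, 50.5 and 50.6% of band genes were divergent, against 48.2, 42.5 and 45.1% of top-rank genes, higher in 3 of 3 (7.22 ± 1.49 points, exact p = 0.25). Against the next ranks it was higher in 2 of 3 (exact p = 0.5).

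Genes of protein synthesis were among those with band regions. Of 92 cytosolic ribosomal protein genes, 20 had a band summit at a start, or 21.7%, against 6 with a next-rank region and 45 with an IDR-list peak. No gene had both a band and an IDR-list summit, which the removal of overlapping regions makes less likely by construction. The highest of them by pooled rank was RpS7, with ranks 5601, 3526 and 2685 in replicates 1, 2 and 3. RpS3A stood at 4345, 3013 and 3132, RpL29 at 3457, 4924 and 5213, and RpL7A at 6106, 4439 and 4954. All 4 summits lay within 46 bp of a start. Among 73 mitochondrial ribosomal protein genes 14 had a band summit, 9 a next-rank region and 8 an IDR-list peak. mRpL19, mRpL34, mRpS16 and mRpL50 led them, and the last 3 of these share the summit with the genes Dg, cg and mei-P22. Translation factor genes had 8 of 53 in the band. Among them were eEF1alpha1, whose product delivers aminoacyl-tRNA to the ribosome, and the helicase gene eIF4A, which also has an IDR-list peak. The highest summit at eEF1alpha1 is shared with ERp60. Proteasome subunit genes had 4 of 48, near the background, in the order Rpt5, Prosalpha4, Prosalpha5 and Prosbeta7. Heat shock and chaperone genes had 4 of 22, led by DnaJ-1 and Hsp23. A next-rank region stood at 6 translation factor, 3 proteasome subunit and 4 heat shock and chaperone genes.

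Genes of embryonic patterning and cell signalling were among them too. Among 10 pair-rule genes, which set up the segments, 4 had a band summit, namely run, odd, opa and eve. A further 4 had an IDR-list peak instead. The run region had pooled signal 193 and stood at ranks 2970, 4323 and 4859 in replicates 1, 2 and 3. At odd and opa the region was weaker in replicate 1, with ranks 7244 and 9536, than in replicates 2 and 3, with 2629 and 2516 at odd and 2943 and 3284 at opa. That at eve shared its summit with an antisense RNA gene and ranked 26500 in replicate 1, against 4859 and 7897 in the others. Gap and maternal patterning genes had 2 of 16, btd and hb, near the background. Of 8 Hox genes Abd-B and abd-A had band summits, and 3 others had an IDR-list peak. A next-rank region stood at 2 pair-rule genes, 5 gap and maternal patterning genes and 2 Hox genes.

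In the Dpp pathway, the fly's BMP pathway, 5 of 19 genes had a band summit. They included the receptor gene tkv, with ranks 7917, 1976 and 2680, the target gene bi, and the genes of the antagonist sog and the repressor brk. In the Wingless pathway it was 5 of 23, with the receptor gene fz2 at 6913, 3276 and 1843, the ligand gene Wnt5, and Apc and arm, which encode the destruction-complex scaffold and beta-catenin. Notch pathway genes had 4 of 17, with the coactivator gene mam, the glycosyltransferase gene fng, the ubiquitin ligase gene neur and the gamma-secretase gene aph-1. In the EGF receptor pathway the ligand gene spi, the receptor gene Egfr, the adaptor gene drk and the ubiquitin ligase gene Cbl made up 4 of 20. The region at Cbl was missing from replicate 2. Hedgehog pathway genes had 1 of 12, the ligand gene hh itself, at ranks 3690, 4151 and 4598. JAK/STAT genes had 2 of 10, the ligand gene upd1 and the SUMO ligase gene Su(var)2-10. Hippo pathway genes had 6 of 14, led by dco, sd, Diap1 and hpo, and ecdysone response genes had 5 of 16, led by tai, ImpL2, usp and ftz-f1. A next-rank region stood at 7 Dpp, 6 Wingless, 6 Notch and 6 EGF receptor pathway genes, more than had a band summit. It stood at 1 Hedgehog gene, as in the band, and at 1 JAK/STAT, 2 Hippo and 3 ecdysone response genes, fewer than in the band. Of the pathway genes named, tkv, mam, sd, Diap1 and tai also had an IDR-list peak at a start.

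Of 13 apoptosis genes 6 had a band summit, 46.2%, while 4 had a next-rank region, 30.8%, and 1 had an IDR-list peak. Those with a band summit included rpr, an activator of cell death in the fly embryo, with ranks 3838, 5775 and 20673 in replicates 1, 2 and 3. Diap1, the inhibitor that rpr acts on, stood at 11505, 8416 and 2913 and is also the gene with the IDR-list peak. The caspase gene Dcp-1 shares its summit with pita, which also has an IDR-list peak, and Dark encodes the apoptosome scaffold. Diap1 also stands in the Hippo list, as a target of that pathway. With 13 genes the exact 95% interval on such a share is wide. All of rpr, Diap1, Dcp-1 and Dark ranked below the band in at least 1 replicate, with Dcp-1 at 7484 and Dark at 18804 in replicate 1.

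Neural fate regulators had 7 of 24 genes in the band, led by da, pdm2, SoxN and dpn, and axon guidance genes 7 of 23, led by NetA, PlexA, NetB and sli. The region at da, the partner of proneural helix-loop-helix proteins, ranked 4752, 2645 and 3846, whereas that at dpn ranked 22902 in replicate 1 and 2203 and 2976 in the others. The netrin genes NetA and NetB lie next to each other and each had a band region of its own. Polycomb and Trithorax group genes had 7 of 30, led by Jarid2, jing, osa and Scm. The region at jing was missing from replicate 2, and that at osa ranked 17029 in replicate 3. Insulator and architectural protein genes had 5 of 27, among them M1BP, whose product binds Motif 1, and BEAF-32. The M1BP region shares its summit with CG8202 and ranked 3352, 27213 and 9548 in replicates 1, 2 and 3. DNA replication and cell cycle genes had 8 of 37, led by stg, polo, CycA and E2f1. The region at polo ranked 2582 and 13252 in replicates 1 and 2 and was missing from replicate 3. Mesoderm and muscle genes had 4 of 21, namely Tm1, htl, Tm2 and sls, and junction and polarity genes 4 of 21, namely Nrg, yrt, cno and arm. Of these, Tm1 and cno also had an IDR-list peak at a start. A next-rank region stood at 9 neural fate, 8 Polycomb and Trithorax and 7 mesoderm and muscle genes, more than had a band summit. Fewer than in the band had one among axon guidance (5), insulator (4), DNA replication and cell cycle (5) and junction genes (2).

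The remaining lists were mostly of multicopy or narrowly expressed families. No histone gene of 115 and no cuticle protein gene of 117 had a band summit, and chemosensory receptor genes had 3 of 179, each of which shared its summit with another gene (Letm1, Lamtor4 and CG5521). tRNA genes had 7 of 290, against 9.47% of all genes. The list of snRNA and snoRNA genes had 6.31%, made up of 5 of 32 snRNA genes, or 15.6% (exact 95% interval 5.28 to 32.8%), and 14 of 269 snoRNA genes, or 5.20%. For multicopy genes such as histones and tRNAs, reads from near-identical copies may not have been placed by the mapping, which is not described in the sources used here.

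**Figure D4:**
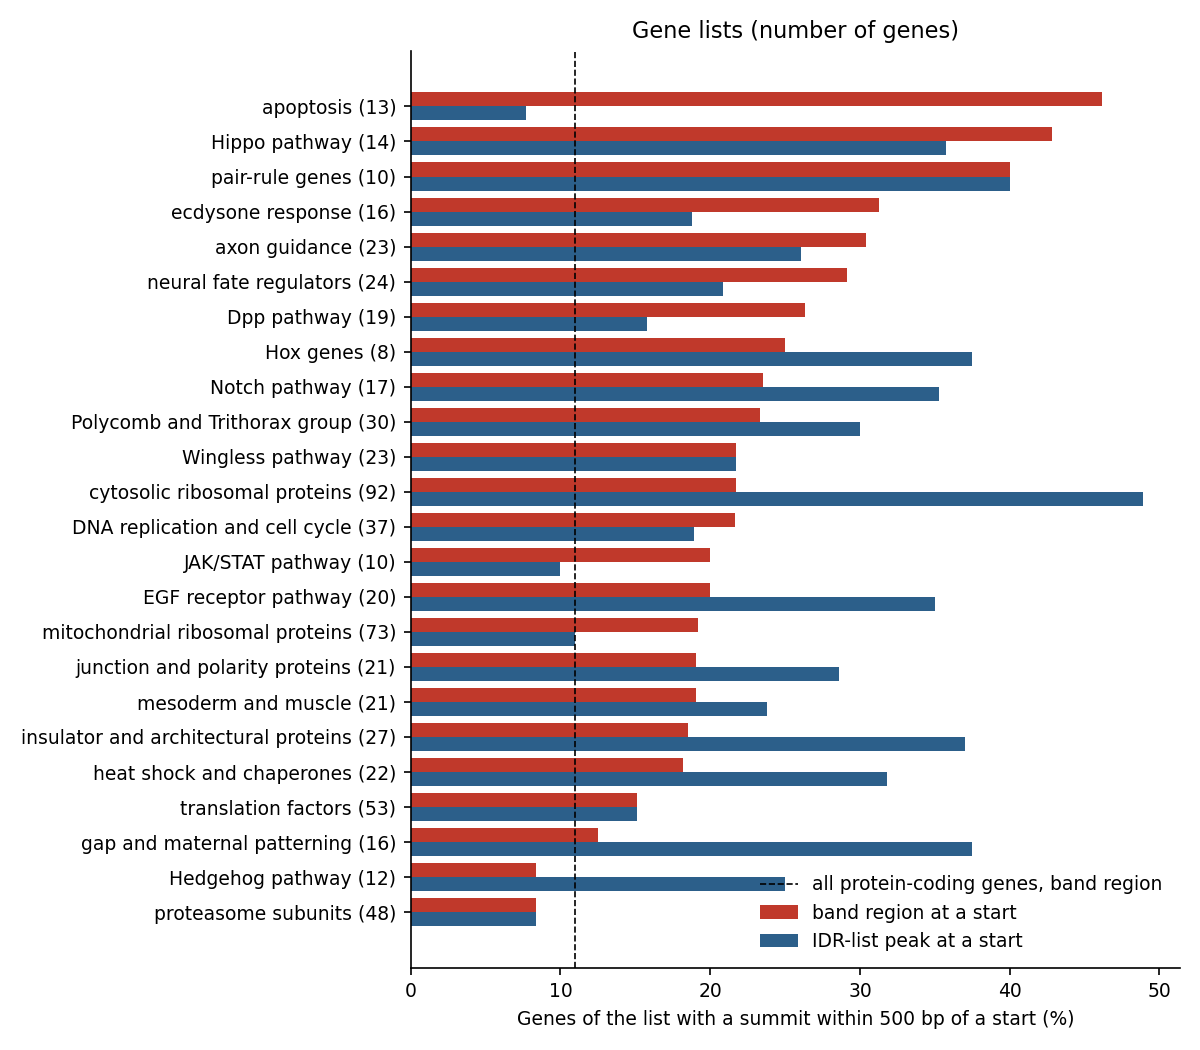
Share of the genes of each list (horizontal axis, %) that had a band summit (upper bars) or an IDR-list peak (lower bars) within 500 bp of a start, for the 24 lists with up to 92 genes, with the number of genes in brackets. The dashed line is the 11.0% of all protein-coding genes with a band summit. The lists were chosen with earlier results of these data known and no test was made of them.

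The rank of the band in each replicate list is a description, since the pooled list was made from these replicates. In the list of replicate 1, 349 band regions were among the top ranks, 2007 in the band itself, 673 in the next ranks and 275 lower, and 25 overlapped no region of the list. The counts in replicate 2 were 477, 1411, 663, 639 and 139 in the same order, and in replicate 3 560, 1351, 669, 638 and 111. Their median ranks were 5624.5, 6149 and 6166.5 in replicates 1, 2 and 3. The band thus lay closer to its pooled place in replicate 1 than in the others. Signal of the band regions was also highest in replicate 1, with a median of 75.4, while replicates 2 and 3 had 39.7 and 39.4, and the scales of the lists may differ.

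**Figure D5:**
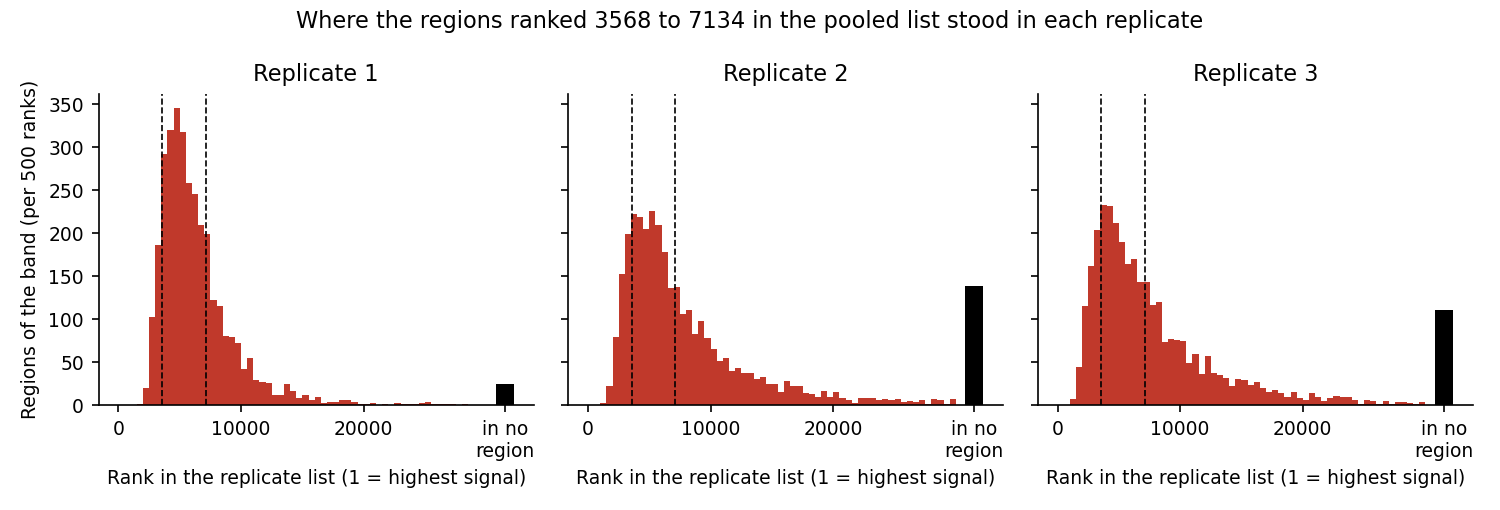
Number of band regions (vertical axis, per 500 ranks) by their rank in the list of each replicate (horizontal axis, 1 is the highest signal), with regions that overlapped none of the list in black at the right. Dashed lines mark the ends of the top ranks and of the band, between which lay 2007, 1411 and 1351 of 3329 regions in replicates 1, 2 and 3.

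The ranks of band regions often differed between the 3 replicates. All 3 lists placed 672 of them in or above the band, or 20.2% (18.8 to 21.6%), against 2.64% of next-rank regions and 91.3% of IDR-list peaks. A further 1557 were there in 2 replicates, 1025 in 1 and 75 in none. The share with all 3 was 58.0% in the first of 10 equal stretches of the band by pooled rank and 2.66% in the last. The cut used here is the lower edge of the band in a pooled list made from these replicates. Next-rank regions lie below that edge and IDR-list peaks well above it by rule. These shares and their fall along the band thus follow in part from the selection. Among the 3064 regions found in every list, the worst rank was a median of 2.49 times the best, more than 2 times in 66.1% and more than 10 times in 17 regions. Across band regions, the Spearman coefficient of signal was -0.15 between replicates 1 and 2 (n = 3167), -0.25 between 1 and 3 (n = 3193) and 0.11 between 2 and 3 (n = 3087), against 0.83, 0.75 and 0.81 in the IDR list. These coefficients are over a narrow range of the signal that chose the regions and carry no p-value.

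Promoter summits were 43.2% of regions in or above the band in 3 replicates, 41.6% of those in 2, 39.9% of those in 1 and 37.3% of the 75 in none. The heptamer was in 7.74, 7.77 and 7.02% of the windows with 3, 2 and 1 replicates and in 3 of the 75 with none. Coding exons held 8 of 672, 5 of 1557, 4 of 1025 and 0 of 75 summits in the same order, the last with an exact upper bound of 4.80%. The exact 95% intervals of the groups overlap for each of these 3 measures, and no test was made of the differences.

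The band regions with the highest mean percentile lay in an intron of Lim1, in an intron of Smr, at gol, at CG15771, at ATPsynC, in an intron of Delta (2 regions) and near alphaTub84B. Lim1 had ranks 3164, 1757 and 2036 in replicates 1, 2 and 3 and a mean percentile of 92.3 ± 2.48 (SD, n = 3). Its region of 111 bp, however, lay 15 bp from an IDR-list region, and in each replicate the overlapping region also covered that stronger neighbour. This was so in at least 1 replicate for 13 of the 3329 band regions. The region in an intron of Smr, which encodes a corepressor of nuclear receptors and Notch signalling, had ranks 3026, 2980 and 1946 and a mean percentile of 91.2 ± 2.04. The one at -235 bp from a start of gol, a gene of the RING-finger family expressed in mesoderm, had ranks 2608, 3045 and 2465 and 91.0 ± 1.01. CG15771, whose window is shown above, had 3081, 2463 and 3266, with a summit 13 bp upstream of its start. The Delta regions, in the gene of a Notch ligand, overlap each other and share replicate regions ranked 3334, 3258 and 2715, with pooled ranks 3835 and 6637. Those at Lim1, Smr, gol, CG15771 and Delta were the only 6 band regions among the top ranks of all 3 replicates, and 5 remain when Lim1 is left out for its neighbour. ATPsynC stood at 4212, 2476 and 2601, and the region 3122 bp downstream of the alphaTub84B start at 3753, 2584 and 3080.

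The regions with the highest pooled signal were less even. CG8152 ranked 2478 in replicate 1, 11359 in replicate 2 and 8571 in replicate 3. After it came run, an intergenic region near Osi19 with ranks 4211, 4322 and 3605, RpS7, a promoter of klar with 4434, 3189 and 2528, and an intron of NK7.1 with 3586, 3212 and 7535. At the lower end stood an intergenic region whose nearest start is CG33912, with 2355, 12932 and 12507, and Hnf4, with 6485, 22717 and 7157.

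Where replicates disagreed most, 1 list set the region apart from the others. A region at -630 bp from a start of Gnf1, which encodes a DNA replication factor subunit, ranked 4388 and 1872 in replicates 1 and 3 and 29590 in replicate 2. The overlapping pair of regions upstream of Fili ranked 3201, 29735 and 19822, and an intronic region of ana 2513, 4367 and 28728. From at least 1 list 265 band regions, or 7.96%, were missing, and 10 from 2 lists. The highest of these by pooled signal were the promoter of ATP8A, absent from replicate 3 and at ranks 2292 and 3615 in replicates 1 and 2, that of CG33947, absent from replicate 1 and at 3265 and 2512 in replicates 2 and 3, and an intronic region of gpp, absent from replicate 3. Among the 10 found in 1 list only were an intron of CG5758 and the promoters of cry and CG8320, at ranks 4207, 3505 and 3823 of replicate 1. These 3 were named after their values were seen. Each replicate list ends at 30000 summits, so a missing region may be one below that end.

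Band regions lay about as far from the IDR list as the next ranks did. The median distance from a band region to the nearest IDR-list region was 6309 bp, against 6762 bp for the next ranks, and 13.2% of band regions (12.1 to 14.4%) lay within 1000 bp of one, against 12.2% of the next ranks.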

How the data were processed

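Per the file headers and accompanying notes, the authors made 5 region lists on dm6: 1 for each of 3 replicates, 1 from all replicates pooled and 1 that passed an IDR threshold. The replicate and pooled lists came from the replicates' alignments and 1 further file, which the authors' control-normalized signal also used and which was not analysed here. Not given in the sources used here are the aligner, the peak caller, any version and the cut-off on IDR. The deposited lists give a region, a summit, a signal value of unstated unit and a −log10 q-value; the authors' signal was used to rank, and the −log10 q-value only described. There are no read counts, so depth is unknown.

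Pooled summits were sorted by signal, with ties by chromosome and start. The IDR list is exactly the 3567 highest of them, so the band covers ranks 3568 to 7134 and the next ranks 7135 to 10701. Positions count from 1 and were compared with Ensembl release 115 and RefSeq Release 6 sequence, on arms 2L, 2R, 3L, 3R, 4 and X; no sequence of arm 2R is shown. Not every sequence picked for display is reported here. Each summit was a promoter one if within 500 bp of any start (transposable elements aside), else exonic (5' UTR before coding, 3' UTR and other exons), else intronic, else intergenic. A replicate's rank for a region is that of its highest region overlapping by 1 bp or more, and the percentile is that rank's place among 30000, with a missing region placed lowest. Replicates are separate biological replicates per the labels. Motifs were searched on both strands in 201 bp windows, and the summit hexamers and heptamer in 101 bp windows. Intervals are exact (Clopper-Pearson, 95%) and cover counting error only, since regions are not replicates. The only tests are two-sided exact sign-flip permutation tests over 3 replicates.

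The members, gene lists and motifs were chosen with earlier results of these data known. Regions named are the 8 highest by mean percentile, the 6 highest by pooled signal, the 4 widest in rank, the 3 highest that are missing from a list and 2 at each end of the band. Genes named are up to 4 for each list by pooled rank. Shared summits and wide rank gaps are given for some of these genes only. Alternatives covered ranking by distinct regions, the upper part of the band, kept overlaps, promoter and motif windows, overlap and rank limits, and each replicate left out. Python 3.11.15, numpy 2.4.6, pandas 2.3.3 and scipy 1.17.1 were used, and the overlap, motif and permutation steps were tested on simulated data.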

Additional observations from a re-analysis of the deposited data

How the results depend on the processing

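Over 15 results and 68 alternatives, 45 values stayed within the spread between replicates or, for counts of genes, within 1.5 times the count reported. The other 23 did not. None changed sign, but of these results only the median promoter position can. A promoter window of 200 bp gave 33.6% promoter, 39.0% intron and 21.1% intergenic summits, and one of 1000 bp gave 51.7, 30.5 and 15.5%. Protein-coding genes with a summit at a start numbered 1195 and 1927 with these windows. In the upper part of the band, the shares were 43.1, 35.6 and 17.4%, TACACTG was in 9.17% of windows, 826 protein-coding genes had a summit at a start and 34.6% of regions were in or above the band in all 3 replicates. That last share was 24.8% with regions that overlap the IDR list kept, 17.9% when at least 50% of the region had to be covered, 0.180% for the top ranks alone and 52.5% with the next ranks included. With 1 replicate left out, in turn, it ranged from 34.1 to 37.1%, as fewer lists have to agree by construction. GAGAG was within 50 bp of 18.8% of summits and within 150 bp of 40.9%. TACACTG was within 30 bp of 5.26% and within 100 bp of 11.1%; its alternatives were chosen after the data were seen. With each replicate left out, shares in the replicates' own bands stayed within their spread, as means of 3 values must by construction. These values are among the 45 and do not show stability. No paired analysis was possible because there is 1 group; the own-band tests pair rank bands within a replicate. Depth is unknown, so whether a region missing from a list lacked reads or fell below its end cannot be told.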
